A study of Mus musculus with 9 samples.

Results

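The genes described here are 32 markers of the choroid plexus epithelium, the cell layer that makes cerebrospinal fluid. They were chosen by symbol as genes known for that epithelium, with earlier results of these data known. All 32 were found among the 55335 genes of the deposited table of FPKM (fragments per kilobase of transcript, scaled to the mapped fragments of the library, a unit that corrects for gene length and library size). The libraries are mRNA sequencing of mouse substantia nigra, the midbrain nucleus whose dopamine neurons are lost in Parkinson disease, with 3 libraries in each of 3 groups. The group called MPTP plus running was injected intraperitoneally with MPTP-HCl at 20 mg/kg, 2 times a week for 5 weeks, and had voluntary wheel running for 2 months after the first injection. The MPTP group had the same injections without the wheel, and the vehicle group had saline on the same schedule. MPTP is a neurotoxin whose metabolite enters dopamine neurons. The sources used here do not give strain, sex, age or the time at which each group was collected. The labels name 3 mice per group but do not state that each library is 1 mouse, and the tests take only the libraries' own spread into account.

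The choroid plexus hangs in the brain ventricles, and its epithelium secretes cerebrospinal fluid by moving ions and water from blood. It also exports carrier proteins, of which transthyretin is the most abundant, and hands vitamins such as folate to the brain. The substantia nigra is not a ventricular structure and holds no choroid plexus. In RNA from a whole piece of tissue, fewer cells of a type and less RNA per cell cannot be told apart.

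Every one of the 32 genes was highest in an MPTP library. Most of the genes shared parts of an order of single libraries that ran across the groups, but not the whole order. The lowest library was MPTP plus running replicate 2 in 18 genes, vehicle replicate 1 in 8 and vehicle replicate 2 in 6. Each gene's 9 libraries were ranked from 1 for the highest to 9 for the lowest. The median rank over the 32 genes was 4 for MPTP plus running replicate 3, 5 for replicate 1 and 9 for replicate 2. It was 1 for MPTP replicate 3, 2 for MPTP replicate 1 and 4 for MPTP replicate 2. Among vehicle libraries it was 6 for replicate 3 and 8 for each of replicates 1 and 2. The groups thus overlapped in this order, with 1 running library below every vehicle library in median rank and the other 2 beside MPTP replicate 2.

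Parts of this order were counted gene by gene. The parts were taken from the ranks of these same genes, so the counts describe the order and do not test it. Counts are over all 32 genes, and the shares beside them are over tested genes only. MPTP replicates 3 and 1 stood above all other libraries in 28 of 32 genes, and in 27 of the 30 that were tested. This pattern was held by 2.46% of the 15997 genes tested (those that averaged 0.5 FPKM or more across the 9 libraries). The single highest library was MPTP replicate 3 in 28 genes and MPTP replicate 1 in the other 4, which were Sostdc1, Otx2, Msx1 and Calml4. MPTP plus running replicate 2 was below both other running libraries in 31 genes, against 36.4% of all tested genes, and below every MPTP library in 31 genes, against 26.2%. The exception to both was Cdh3. MPTP plus running replicates 1 and 3 were both above every vehicle library in 20 of the 32 genes, against 12.9% of tested genes. Vehicle replicate 3 was above the other 2 vehicle libraries in 25 genes, against 35.7%. MPTP replicate 2 was below the other 2 MPTP libraries in 30 genes, against 41.5%.

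**Figure D1:**
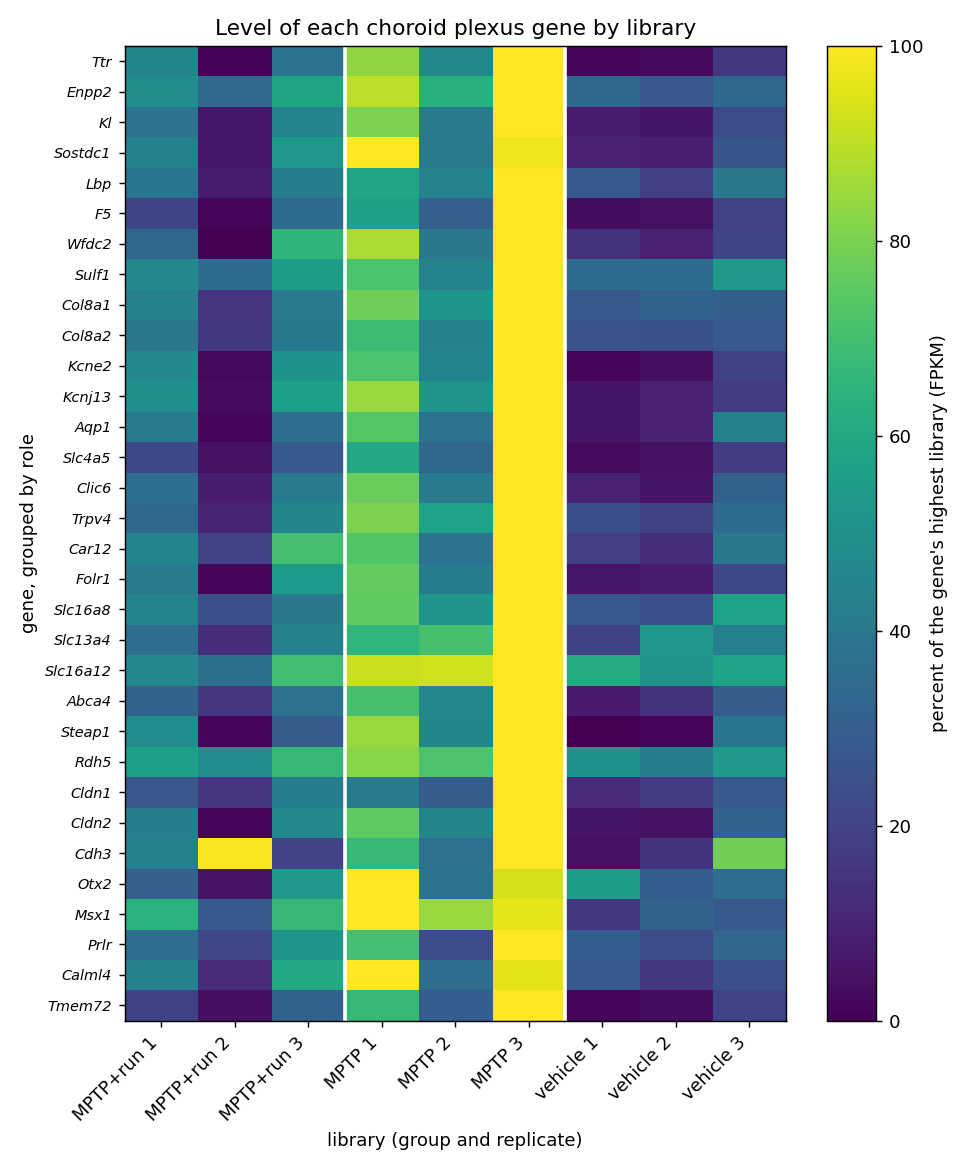
Each row is 1 of the 32 genes and each column 1 library, grouped as MPTP plus running, MPTP and vehicle, and the colour gives the gene's FPKM as a percent of its own highest library. The column of MPTP replicate 3 is at 100% in 28 rows. The column of MPTP plus running replicate 2 is at 48.7% (Rdh5) or less in every row but Cdh3 (99.4%). The columns of vehicle replicates 1 and 2 are dark in many rows as well.

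Among secreted and matrix proteins, Ttr (ENSMUSG00000061808, chromosome 18 at 20665280 to 20674321, plus strand, GRCm38) encodes transthyretin, which carries thyroxine and retinol-binding protein. Ttr stood at 924.5, 18.5 and 769.8 FPKM in MPTP plus running replicates 1 to 3, at 1676, 929 and 2011 FPKM in MPTP replicates 1 to 3, and at 32.0, 41.9 and 328 FPKM in vehicle replicates 1 to 3. The highest library held 108 times the lowest. The MPTP libraries were all above the vehicle libraries, and the running libraries fell on both sides of the vehicle range. Group means were 571 ± 485 FPKM with running, 1539 ± 554 FPKM with MPTP alone and 134 ± 168 FPKM with vehicle (SD, n = 3 each).

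Enpp2 (ENSMUSG00000022425, chromosome 15 at 54838901 to 54952892, minus strand) encodes autotaxin, the secreted enzyme that makes lysophosphatidic acid, and oligodendrocytes make it as well. It stood at 104, 72.4 and 124.5 FPKM in MPTP plus running replicates 1 to 3, at 192, 135 and 212.5 FPKM in MPTP replicates and at 71.0, 57.7 and 70.6 FPKM in vehicle replicates. Enpp2 was the 1 gene of the 32 in which the 3 groups did not overlap at all. Its range over libraries was 3.68-fold, so it varied far less than Ttr. The summed level of 8 oligodendrocyte markers was 1168, 2055 and 1307 FPKM in MPTP plus running replicates 1 to 3, 1762, 1401 and 1173 FPKM in MPTP replicates and 1968, 1394 and 1256 FPKM in vehicle replicates. It was highest in MPTP plus running replicate 2, where the choroid plexus genes were lowest, and its part in the level of Enpp2 was not tested.

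Kl encodes klotho, a co-receptor of the hormone FGF23 that is also shed into cerebrospinal fluid. It stood at 3.60, 0.613 and 4.26 FPKM in MPTP plus running replicates 1 to 3, at 7.63, 3.92 and 9.49 FPKM in MPTP replicates and at 0.725, 0.540 and 2.19 FPKM in vehicle replicates. Sostdc1, a secreted antagonist of BMP and Wnt signals, stood at 3.30, 0.469 and 3.98 FPKM in running libraries, at 7.49, 3.12 and 7.29 FPKM in MPTP libraries and at 0.741, 0.616 and 1.998 FPKM in vehicle libraries. F5, coagulation factor V, stood at 1.66, 0.153 and 2.78 FPKM in running libraries, at 4.56, 2.44 and 7.94 FPKM in MPTP libraries and at 0.273, 0.361 and 1.63 FPKM in vehicle libraries. All 3 genes shared the placing of MPTP above vehicle without overlap, with replicate 2 of the running group near or below the lowest vehicle library.

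The other members of this group were low. Lbp, which binds bacterial lipopolysaccharide, averaged 1.12 ± 0.716 FPKM with running, 2.57 ± 1.09 with MPTP alone and 1.09 ± 0.401 with vehicle. The chains of collagen VIII, a short-chain matrix collagen, had a narrow vehicle spread. Col8a1 averaged 0.707 ± 0.328, 1.63 ± 0.505 and 0.631 ± 0.0447 FPKM in MPTP plus running, MPTP and vehicle libraries, and Col8a2 averaged 1.21 ± 0.522, 2.67 ± 1.06 and 0.994 ± 0.0661 FPKM in the same groups. Wfdc2, a secreted protein of the whey acidic protein family, was listed at 0 in MPTP plus running replicate 2, at 0.582 and 1.14 FPKM in running replicates 1 and 3, at 0.699 to 1.74 FPKM in MPTP libraries and at 0.169 to 0.366 FPKM in vehicle libraries. Sulf1, a sulfatase that edits heparan sulfate outside the cell, ranged only 2.88-fold over libraries, and its MPTP range of 1.99 to 4.47 FPKM overlapped the vehicle range of 1.58 to 2.40 FPKM.

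The genes of ion and water transport carry the fluid-making work of the epithelium. Kcnj13 (chromosome 1 at 87386363 to 87394729, minus strand) encodes the potassium channel Kir7.1. It stood at 8.06, 0.456 and 9.14 FPKM in MPTP plus running replicates 1 to 3, at 13.7, 8.41 and 16.2 FPKM in MPTP replicates and at 0.930, 1.61 and 2.91 FPKM in vehicle replicates. Kcne2 (chromosome 16 at 92292389 to 92298129, plus strand), an accessory subunit of potassium channels, stood at 3.62, 0.157 and 3.93 FPKM in running libraries, at 5.52, 3.46 and 7.69 FPKM in MPTP libraries and at 0.103, 0.327 and 1.49 FPKM in vehicle libraries. Running replicates 1 and 3 lay inside the MPTP range for Kcne2, and close to its lower end for Kcnj13, with replicate 1 just below it. Running replicate 2 lay below the vehicle range for Kcnj13 and inside it for Kcne2.

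Clic6, of the intracellular chloride channel family, lies on the same chromosome at 92485736 to 92541243. It stood at 5.36, 1.17 and 5.97 FPKM in running libraries, at 11.3, 5.98 and 14.7 FPKM in MPTP libraries and at 1.43, 0.844 and 4.55 FPKM in vehicle libraries. Aqp1, the water channel of the apical membrane, stood at 3.29, 0.145 and 2.89 FPKM in running libraries, at 5.90, 3.07 and 8.01 FPKM in MPTP libraries and at 0.448, 0.804 and 3.48 FPKM in vehicle libraries. Vehicle replicate 3 was thus above MPTP replicate 2 for Aqp1, and the groups overlapped. Slc4a5, a sodium bicarbonate cotransporter, averaged 0.797 ± 0.539 FPKM with running, 2.84 ± 1.47 with MPTP alone and 0.376 ± 0.374 with vehicle. Trpv4, a calcium-permeable channel, averaged 0.713 ± 0.427, 1.89 ± 0.501 and 0.626 ± 0.187 FPKM in MPTP plus running, MPTP and vehicle libraries. Car12, carbonic anhydrase XII, averaged 2.26 ± 1.25, 3.51 ± 1.55 and 1.19 ± 0.720 FPKM in the same groups, and its MPTP and vehicle ranges overlapped.

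Among genes of solute and vitamin transport, Folr1, the folate receptor that carries folate into cerebrospinal fluid, stood at 2.12, 0.0933 and 2.80 FPKM in MPTP plus running replicates 1 to 3, at 3.86, 2.14 and 5.09 FPKM in MPTP replicates and at 0.318, 0.379 and 1.10 FPKM in vehicle replicates. Steap1, of the STEAP family of membrane proteins, stood at 1.53, 0.0532 and 0.935 FPKM in running libraries, at 2.67, 1.44 and 3.15 FPKM in MPTP libraries and at 0 (as listed), 0.0392 and 1.23 FPKM in vehicle libraries. Slc13a4, a sulfate cotransporter, stood at 2.09, 0.748 and 2.55 FPKM in running libraries, at 3.81, 4.10 and 5.79 FPKM in MPTP libraries and at 1.13, 3.09 and 2.496 FPKM in vehicle libraries. Vehicle replicate 2 was the highest vehicle library for Slc13a4, as it was for Col8a1 and Msx1.

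Rdh5, an 11-cis-retinol dehydrogenase, had the narrowest range of the 32 genes, 2.39-fold over libraries. It stood at 2.57, 2.22 and 3.04 FPKM in running libraries, at 3.74, 3.28 and 4.55 FPKM in MPTP libraries and at 2.32, 1.90 and 2.47 FPKM in vehicle libraries. Slc16a12, a creatine transporter, was similarly flat, with 0.429 to 0.805 FPKM in running libraries, 1.07 to 1.16 FPKM in MPTP libraries and 0.605 to 0.714 FPKM in vehicle libraries. Abca4, which moves retinoids across membranes and is best known from photoreceptors, averaged 0.436 ± 0.174 FPKM with running, 1.12 ± 0.418 with MPTP alone and 0.266 ± 0.176 with vehicle. Slc16a8, the lactate transporter MCT3, averaged 0.464 FPKM over all libraries, below the minimum for testing, and its MPTP range of 0.488 to 0.933 FPKM overlapped the vehicle range of 0.230 to 0.540 FPKM.

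The junction genes included Cldn2, the claudin that forms a paracellular pore for cations and water. It stood at 1.63, 0.0669 and 1.84 FPKM in running libraries, at 2.90, 1.76 and 3.85 FPKM in MPTP libraries and at 0.224, 0.172 and 1.21 FPKM in vehicle libraries. Cldn1, a tight junction claudin, was lower and averaged 0.596 ± 0.287 FPKM with running, 1.201 ± 0.800 with MPTP alone and 0.412 ± 0.169 with vehicle. Cdh3, P-cadherin, was too low to test at a mean of 0.239 FPKM and was the gene furthest from the common place of MPTP plus running replicate 2. It stood at 0.460 FPKM in MPTP plus running replicate 2, against 0.463 FPKM in MPTP replicate 3 and 0.363 FPKM in vehicle replicate 3.

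The receptor, the regulators and the remaining genes stood below 4 FPKM in every library. Otx2, a homeobox transcription factor needed to form the choroid plexus, stood at 1.11, 0.195 and 1.94 FPKM in running libraries, at 3.61, 1.39 and 3.38 FPKM in MPTP libraries and at 2.004, 1.08 and 1.29 FPKM in vehicle libraries. It overlapped between all 3 pairs of groups, and its vehicle order differed from that of Ttr, with vehicle replicate 1 the highest. Msx1, another homeobox factor, stood at 1.19, 0.511 and 1.24 FPKM in running libraries, at 1.86, 1.57 and 1.79 FPKM in MPTP libraries and at 0.298, 0.586 and 0.527 FPKM in vehicle libraries, so that MPTP lay above both other groups without overlap. Prlr, the prolactin receptor, stood at 1.04, 0.609 and 1.52 FPKM in running libraries, at 2.02, 0.672 and 2.87 FPKM in MPTP libraries and at 0.861, 0.659 and 0.952 FPKM in vehicle libraries. Calml4, a calmodulin-like protein of brush borders, averaged 0.798 ± 0.509 FPKM with running, 1.59 ± 0.734 with MPTP alone and 0.464 ± 0.126 with vehicle. Tmem72, a membrane protein, averaged 0.400 ± 0.292, 1.43 ± 0.764 and 0.182 ± 0.222 FPKM in the same groups.

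**Figure D2:**
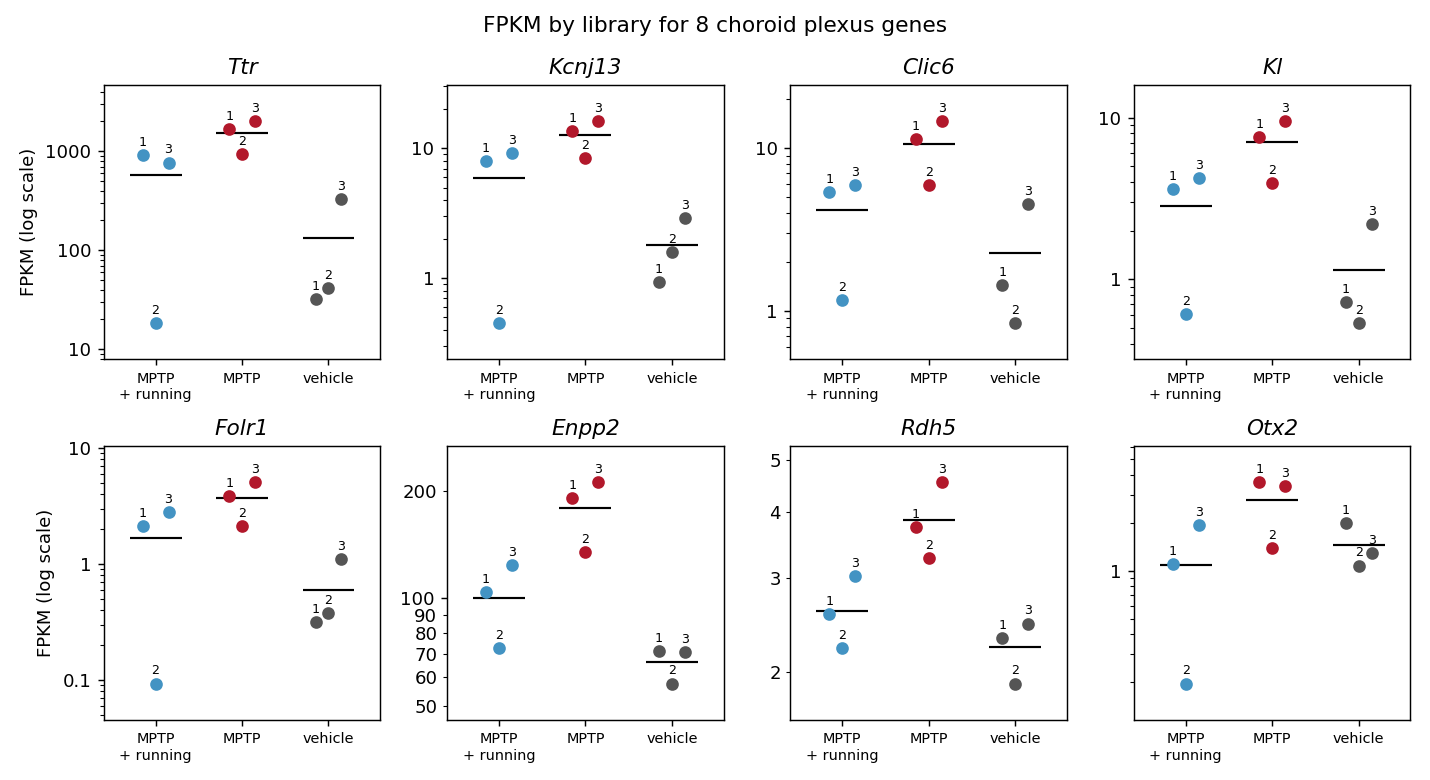
The vertical axis is FPKM on a log scale for 8 of the genes, the points are single libraries numbered by replicate, and the lines are group means (MPTP plus running, MPTP, vehicle). For Ttr, MPTP plus running replicate 2 lies at 18.5 FPKM, below the 3 vehicle libraries, while Rdh5 spans only 2.39-fold and Otx2 overlaps between groups.

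The size of the swing between libraries differed widely among genes. In 18 of 32 genes the highest library was at least 10 times the lowest, or the lowest was listed at 0, and in 6 it was under 5 times. Widest after Ttr were Kcne2 with 74.7-fold, Cldn2 with 57.6-fold, Tmem72 with 56.8-fold, Aqp1 with 55.4-fold, Folr1 with 54.5-fold and F5 with 52.0-fold. Depth is unknown for these libraries, so values below 0.1 FPKM carry a counting error that cannot be stated.

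The start regions of genes that move together are shown for the 3 tested genes with the largest MPTP to vehicle difference among those with a promoter entry that could be printed. RefSeq windows (GRCm38.p6) were given for 24 of the 32 genes, each covering 250 bases before to 50 bases after a start. They were searched on both strands for TAATCC, the core letters of sites bound by OTX2, which read GGATTA on the other strand. Capitals mark a match, and the bases before the start are printed 5′ to 3′ on the strand of the gene. The Abca4 sequence is shown because it holds a match.
Kcnj13, chr1:87394730-87394979, minus strand: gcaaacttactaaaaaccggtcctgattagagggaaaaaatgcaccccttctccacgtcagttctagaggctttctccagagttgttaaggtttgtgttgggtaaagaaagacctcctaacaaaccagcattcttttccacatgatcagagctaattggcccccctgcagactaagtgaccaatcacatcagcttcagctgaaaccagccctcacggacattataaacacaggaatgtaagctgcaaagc
Kcne2, chr16:92292139-92292388, plus strand: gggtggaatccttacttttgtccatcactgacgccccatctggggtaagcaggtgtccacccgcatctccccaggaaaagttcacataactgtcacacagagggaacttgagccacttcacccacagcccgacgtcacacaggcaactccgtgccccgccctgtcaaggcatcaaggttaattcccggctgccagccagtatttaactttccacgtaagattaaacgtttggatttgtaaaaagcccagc
Kl, chr5:150952357-150952606, plus strand: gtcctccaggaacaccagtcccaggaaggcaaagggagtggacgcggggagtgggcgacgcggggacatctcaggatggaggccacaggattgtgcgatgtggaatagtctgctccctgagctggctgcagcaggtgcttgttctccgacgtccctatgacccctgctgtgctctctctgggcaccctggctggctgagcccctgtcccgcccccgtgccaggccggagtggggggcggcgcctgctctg
Abca4, chr3:122044210-122044459, plus strand: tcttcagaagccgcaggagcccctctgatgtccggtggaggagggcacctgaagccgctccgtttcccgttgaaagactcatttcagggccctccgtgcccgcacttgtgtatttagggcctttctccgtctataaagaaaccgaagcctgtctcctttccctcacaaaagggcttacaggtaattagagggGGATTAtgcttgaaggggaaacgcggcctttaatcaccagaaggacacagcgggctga

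The sequences of Kcnj13, Kcne2 and Kl hold no match and differ in base composition. G and C make up 45.2% of the Kcnj13 sequence, 52.4% of the Kcne2 sequence and 66.8% of the Kl sequence, against a median of 52.4% over all windows of the table. CG pairs numbered 3, 9 and 13 in these genes, against a median of 6. The match of Abca4 begins 58 bases before its start, in a sequence with 54.4% G and C and 12 CG pairs. A match also stands 211 bases before 1 of the 4 starts listed for Otx2, inside an annotated exon. TAATCC was found in 2 of 24 of the choroid plexus genes with an entry (8.33%), and in 2199 of 27025 genes of the whole table (8.14%). The share in these genes was close to that of all genes.

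Comparison of MPTP with vehicle asks which transcripts differ after the toxin. All 30 choroid plexus genes that passed the filter on low values were higher in MPTP libraries, with a median log2 difference of 0.95 on the log2(FPKM + 1) scale, against −0.01 over all 15997 tested genes, of which 48.1% were higher. None of the 30 passed an adjusted p of 0.05 in limma with Benjamini-Hochberg adjustment over all tested genes, a threshold passed by 2 genes in all (0.0125%). With the replicate number as a block, 1 of the 30 passed, Enpp2. At an unadjusted p under 0.05, 28 of the 30 were higher, against a background of 2.61%. The 3 MPTP libraries were all above the 3 vehicle libraries in 25 of the 30, against 5.2% of tested genes, and in 0 of the 30 they were all below, against 4.23%. The 30 genes largely moved together over the same 9 libraries, so these counts, here and in the comparisons below, are not 30 separate observations. The genes were also chosen with earlier results of these data known. The filter was set on the mean over all 9 libraries, and the 2 genes outside it, Slc16a8 and Cdh3, were also higher in the MPTP mean. Abca4, Tmem72 and Wfdc2 reached the minimum only through their MPTP libraries. The filter thus favoured a higher MPTP level in these genes, here and in the comparison of running with MPTP. Without a filter all 32 were higher, 28 of them at an unadjusted p under 0.05 in limma (2.38% of genes in that fit).

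The difference was largest in log2 terms for the genes of ion and water transport, with a median of 1.48 over 7 genes. It was 1.13 over 10 genes of secreted and matrix proteins, 0.78 over 6 genes of solute and vitamin transport, 0.97 over 2 junction genes and 0.78 over 5 receptors, regulators and others. The pseudocount of 1 holds down the differences of low genes, and the levels differ between these groups of genes. Ttr differed by 4.24 (SE 1.44, limma adjusted p = 0.992), and its vehicle libraries alone spanned 32.0 to 328 FPKM. Kcnj13 differed by 2.31 (SE 0.67, limma adjusted p = 0.910), Kcne2 by 2.04 (SE 0.56) and Clic6 by 1.92 (SE 0.55). Kl differed by 1.91 (SE 0.49), F5 by 1.74 (SE 0.50), Sostdc1 by 1.70 (SE 0.49), Folr1 by 1.53 (SE 0.45) and Slc4a5 by 1.44 (SE 0.33).

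The smallest p-values did not belong to the genes with the largest differences. Enpp2 was 1.40 higher (SE 0.22, unadjusted p = 0.000173, limma adjusted p = 0.252) and stood in place 11 of the 15997 genes by p. With the replicate number as a block in the fit, Enpp2 passed the threshold (limma adjusted p = 0.0415), and it was the only one of the 30 genes that did so under any alternative tried. Over the 18 alternatives its adjusted p ran from 0.0415 to 0.757. Msx1 was 0.90 higher (SE 0.16, limma adjusted p = 0.393) and stood in place 14. Rdh5 was 0.59 higher (SE 0.13, limma adjusted p = 0.637). The 2 genes with an unadjusted p above 0.05 were Otx2, 0.58 higher (unadjusted p = 0.134, limma adjusted p = 0.992), and Prlr, 0.57 higher (unadjusted p = 0.0824, limma adjusted p = 0.992).

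**Figure D3:**
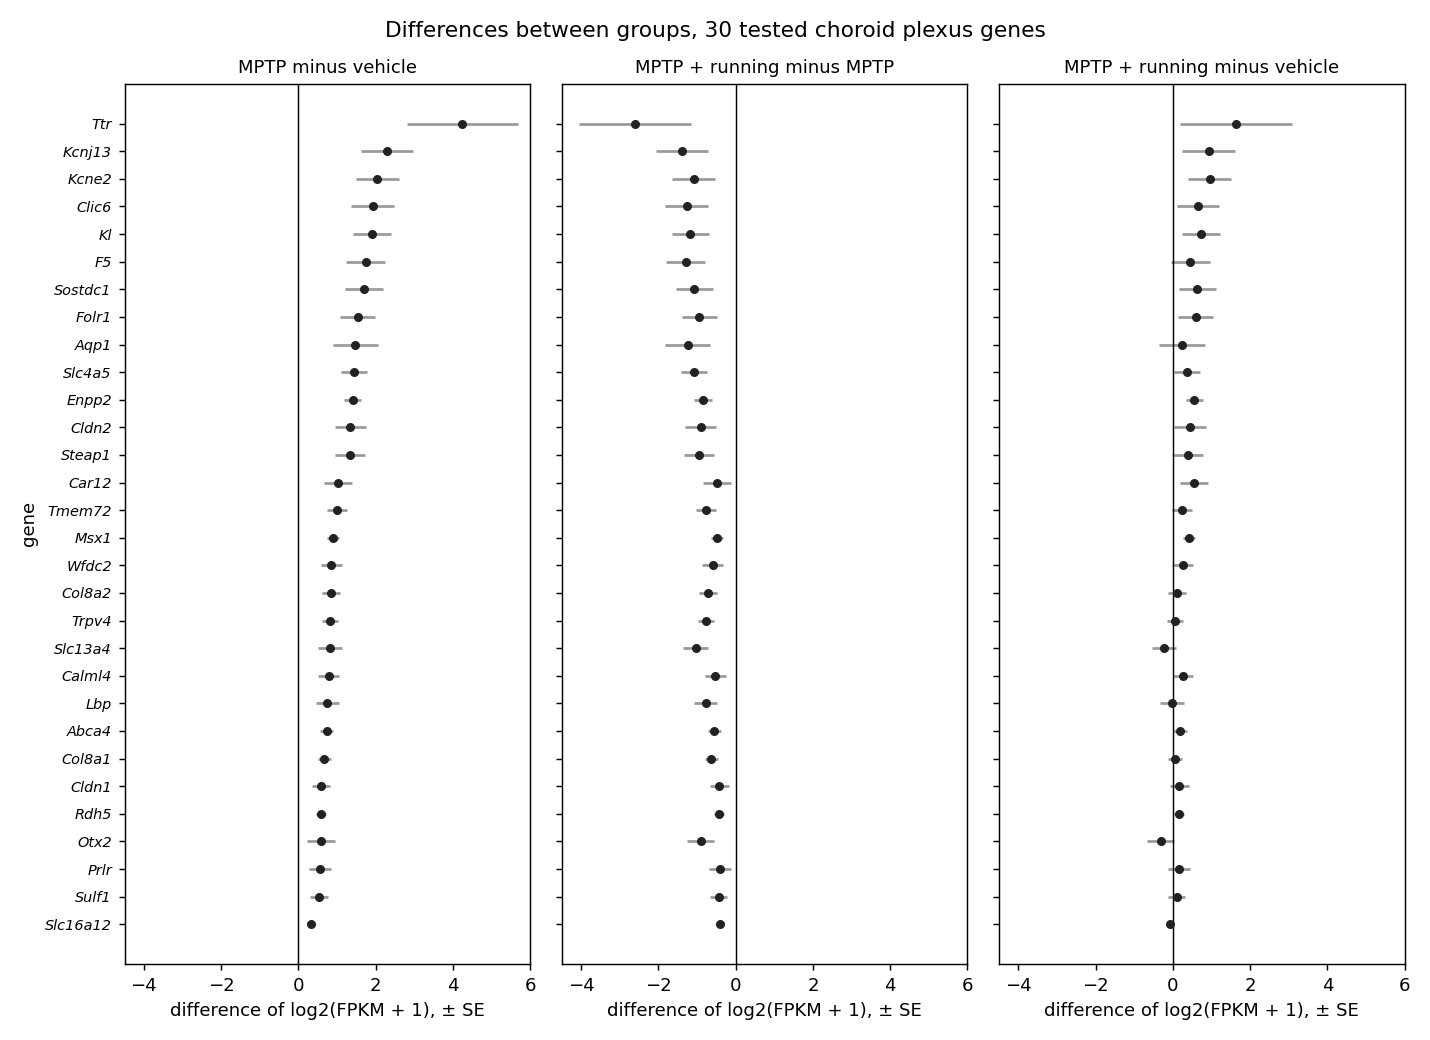
Each row is 1 of the 30 tested genes and the horizontal axis is the difference on the log2(FPKM + 1) scale, with bars for its SE, in 3 panels (MPTP minus vehicle, MPTP plus running minus MPTP, MPTP plus running minus vehicle). All points lie right of 0 in the panel of MPTP minus vehicle and left of 0 in the panel of running minus MPTP, while 26 of 30 lie right of 0 in the last panel.

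Comparison of MPTP plus running with MPTP alone asks what wheel running adds in injected mice, and it shares the MPTP libraries with the comparison above. All 30 tested genes were lower with running, with a median log2 difference of −0.81, against −0.01 over all tested genes, of which 45.7% were higher. No gene of the table passed the adjusted threshold in limma (0%). At an unadjusted p under 0.05, 17 of the 30 were lower, against 2.89% of tested genes, and 0 were higher, against 1.11%. The running libraries all lay below the MPTP libraries in 13 of the 30, against 5.36%, and in 0 they lay all above, against 2.66%. Differences ran from −0.41 for Slc16a12 to −2.61 for Ttr (SE 1.44), with −1.38 for Kcnj13 (SE 0.67), −1.29 for F5 (SE 0.50), −1.27 for Clic6 (SE 0.55), −1.17 for Kl (SE 0.49) and −0.84 for Enpp2 (SE 0.22). The limma adjusted p was 0.9999 for each of the 30 genes.

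One library decided much of this size. Without MPTP plus running replicate 2 the median went to −0.47, and the genes lower at an unadjusted p under 0.05 numbered 10, against 3.69% of all tested genes in that fit. That count was also 10 without MPTP replicate 3 (1.78% of tested genes), 11 without MPTP replicate 1 (2.68%) and 26 without MPTP replicate 2 (4.13%). Ttr differed by −0.79 without MPTP plus running replicate 2. With or without that library, Kcnj13 overlapped the MPTP range of 8.41 to 16.2 FPKM, at 8.06 and 9.14 FPKM in the other running libraries. All 30 genes were lower with running in each of these fits.

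Comparison of MPTP plus running with vehicle gave smaller differences, and it shares its libraries with both comparisons above. Of the 30 genes, 26 were higher with running and 4 lower (Otx2, Slc13a4, Slc16a12 and Lbp), with a median log2 difference of 0.25, against −0.02 over all tested genes, of which 44.7% were higher. No gene of the table passed the adjusted threshold in limma (0%). Enpp2 and Msx1 were higher at an unadjusted p under 0.05, which is 2 of 30 against a background of 3.12%, and 0 were lower, against 3.43%. Enpp2 was 0.56 higher (SE 0.22, unadjusted p = 0.0352, limma adjusted p = 0.753) and Msx1 0.41 higher (SE 0.16, unadjusted p = 0.0305, limma adjusted p = 0.753). Enpp2 was also the 1 gene of the 30 in which all running libraries lay above all vehicle libraries, against 6.38% of tested genes. In 0 of the 30 did they all lie below, against 9.2%. Ttr was 1.64 higher (SE 1.44), Kcne2 0.95 (SE 0.56), Kcnj13 0.92 (SE 0.67), Kl 0.73 (SE 0.49) and Clic6 0.65 (SE 0.55).

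The value depended on single libraries of both groups. Without MPTP plus running replicate 2 the median was 0.57, all 30 genes were higher, 12 of them at an unadjusted p under 0.05 (3.64% of tested genes in that fit), and Ttr was 3.45 higher. Without MPTP plus running replicate 3 the median was 0.09 with 20 of 30 higher, and Ttr was 0.80 higher. Without MPTP plus running replicate 1, Ttr was 0.66 higher. Without vehicle replicate 3 the median was 0.41 and Ttr was 2.68 higher, and without vehicle replicate 1 Ttr was 1.02 higher. The median was 0.58 with a pseudocount of 0.1, 0.56 over the genes that averaged 2 FPKM or more and 0.45 with array weights, where 8 of 30 were higher at an unadjusted p under 0.05, against 5.14% of tested genes. The count at an unadjusted p under 0.05 was 0 without running replicate 1, running replicate 3 or vehicle replicate 1, with 1.89%, 2.56% and 3.05% of tested genes in those fits. It was 1 without vehicle replicate 2 (1.98%) or vehicle replicate 3 (2.02%).

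Within the MPTP group most of the genes kept a nearly constant ratio to Ttr. Ttr varied 2.16-fold over the 3 MPTP libraries, but the ratio of each other gene to Ttr in the same library varied by a median of only 1.25-fold over the 31 other genes (1.03 to 2.03-fold). For tested genes, 20 of 29 (69%) kept that ratio within 1.5-fold, against 9.05% of all tested genes. The ratios of Cldn1, Slc16a12, Prlr, Slc13a4 and Msx1 varied 1.90 to 2.03-fold. A gene with the same FPKM in all MPTP libraries has a ratio that varies 2.16-fold by construction, which also holds down the background share. Per 1000 FPKM of Ttr, Kcnj13 stood at 8.17, 9.05 and 8.05 FPKM in MPTP replicates 1 to 3, and Kcne2 at 3.29, 3.72 and 3.83 FPKM. A ratio within a library does not depend on how the library was scaled.

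Outside the MPTP group most ratios parted furthest in MPTP plus running replicate 2 and vehicle replicates 1 and 2, the libraries with least Ttr. In MPTP plus running replicate 1 the genes differed. The ratios of Kcnj13, Enpp2, Aqp1 and Sostdc1, for example, lay inside the range of the MPTP libraries. Those of Kl, Clic6, F5, Slc4a5 and Folr1 lay below that range, and that of Kcne2 lay above it. Kcne2 per 1000 FPKM of Ttr stayed between 3.22 and 8.49 FPKM over the 9 libraries. Kcnj13 stood at 8.72, 24.6 and 11.9 FPKM per 1000 FPKM of Ttr in MPTP plus running replicates 1 to 3 and at 29.1, 38.4 and 8.88 FPKM in vehicle replicates. Enpp2 per 1000 FPKM of Ttr stood at 112.5, 3905 and 162 FPKM in MPTP plus running replicates, at 114, 145 and 106 FPKM in MPTP replicates and at 2218, 1377 and 216 FPKM in vehicle replicates. Since Enpp2 ranged far less than Ttr over the libraries, its ratio is highest where Ttr is lowest by construction.

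**Figure D4:**
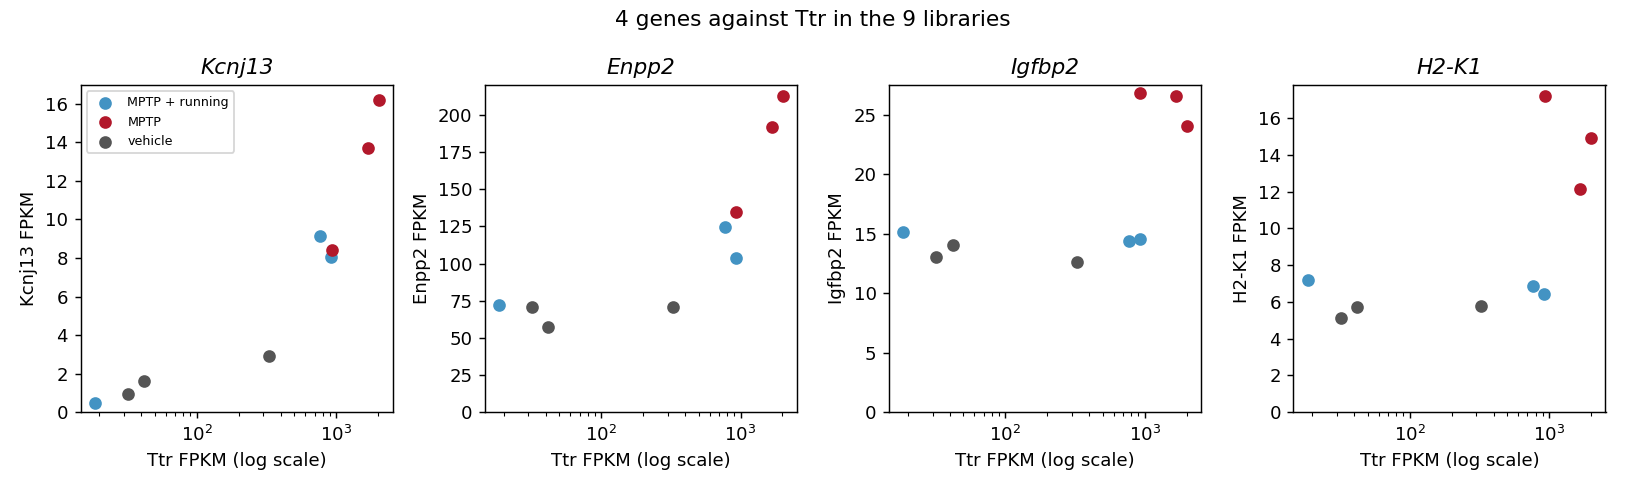
The horizontal axis is Ttr FPKM on a log scale and the vertical axis is FPKM of Kcnj13, Enpp2, Igfbp2 or H2-K1, with 1 point per library coloured by group. In Kcnj13 the running libraries with 769.8 and 924.5 FPKM of Ttr lie beside the MPTP library with 929 FPKM, whereas in Igfbp2 and H2-K1 they lie with the running library that has 18.5 FPKM of Ttr.

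A second list held 30 other genes known for the choroid plexus but also used by other brain cells, of which 26 were tested. In MPTP against vehicle 24 of these were higher and 2 lower, with a median log2 difference of 0.43, and 13 were higher at an unadjusted p under 0.05 (background 2.61%). In MPTP plus running against MPTP all 26 were lower (median −0.33), 12 at an unadjusted p under 0.05 (background 2.89%). In MPTP plus running against vehicle 16 were higher and 10 lower (median 0.17). Ecrg4, a secreted peptide precursor, stood at 14.0, 1.13 and 13.8 FPKM in running libraries, at 22.9, 15.3 and 23.1 FPKM in MPTP libraries and at 1.75, 2.65 and 5.79 FPKM in vehicle libraries. The epithelial keratin Krt18 stood at 1.82, 0.384 and 1.56 FPKM in running libraries, at 3.29, 2.55 and 4.19 FPKM in MPTP libraries and at 0.189, 0.419 and 0.933 FPKM in vehicle libraries. Ecrg4 had the same order of libraries as Ttr, while Krt18 was lowest in vehicle replicate 1 and not in MPTP plus running replicate 2. The serotonin receptor gene Htr2c, which neurons also express, did not, with 6.03, 8.52 and 8.91 FPKM in running libraries, 11.9, 5.01 and 11.02 FPKM in MPTP libraries and 13.03, 7.57 and 7.76 FPKM in vehicle libraries.

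Igfbp2, a binding protein of insulin-like growth factors made by several brain cell types, is in that second list and was 1 of the 2 genes past the adjusted threshold in MPTP against vehicle, together with H2-K1, a class I histocompatibility gene. Igfbp2 stood at 14.6, 15.2 and 14.4 FPKM in MPTP plus running replicates 1 to 3, at 26.6, 26.8 and 24.0 FPKM in MPTP replicates and at 13.1, 14.1 and 12.7 FPKM in vehicle replicates. Its MPTP libraries do not show the dip of MPTP replicate 2, nor its running libraries the drop of replicate 2, that the choroid plexus genes show. H2-K1 stood at 6.41, 7.20 and 6.88 FPKM in running libraries, at 12.1, 17.2 and 14.9 FPKM in MPTP libraries and at 5.13, 5.73 and 5.77 FPKM in vehicle libraries. In fits with 1 library left out, 0 genes passed when that was a running library or MPTP replicate 2 or 3. With MPTP replicate 1 left out 32 genes passed, and with vehicle replicate 1, 2 or 3 left out 4, 3 and 1 genes passed.

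The 10 genes outside the list whose pattern over the 9 libraries was most like the mean log2 level of the 30 tested genes were Slc2a12, Mfrp, Krt18, Spint2, Mlf1, Prr32, Ecrg4, Drc7, Nid2 and the long noncoding RNA 2900040C04Rik. Their Pearson correlations ran from 0.95 to 0.99 over 9 libraries, and from 0.89 to 0.98 once group means were removed. These values share libraries and scaling, and they describe the likeness of the patterns. Slc2a12, a sugar transporter, stood at 2.37, 0.884 and 2.42 FPKM in running libraries, at 3.90, 2.23 and 4.48 FPKM in MPTP libraries and at 1.01, 1.01 and 1.61 FPKM in vehicle libraries. Mfrp, Nid2 and Slc2a12 overlap other genes over 2291, 437 and 407 exonic bases, so their reads may not be their own. Of the 10 genes, 3 are in the second list (Slc2a12, Krt18 and Ecrg4) and Mlf1 is in the list of ciliated ependyma.

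Markers of other cells that such a piece of tissue could hold were read beside these genes. The summed level of 12 markers of ciliated ependyma, the lining of the ventricles, ran from 17.9 to 41.5 FPKM in running libraries, from 20.6 to 47.0 FPKM in MPTP libraries and from 20.4 to 29.5 FPKM in vehicle libraries. In MPTP against vehicle 7 of 10 tested ependymal genes were higher (median 0.20), and 0 had an unadjusted p under 0.05 in limma. MPTP plus running replicate 3 and MPTP replicate 3 were the highest libraries in this sum. The summed level of 12 fibroblast markers ran from 16.0 to 22.6 FPKM in running libraries, from 23.8 to 32.0 FPKM in MPTP libraries and from 21.4 to 36.4 FPKM in vehicle libraries. In MPTP plus running against MPTP all 10 tested fibroblast genes were lower (median −0.42), 3 of them at an unadjusted p under 0.05, against 2.89% of tested genes. In the same comparison all 11 endothelial markers were lower (median −0.26), 5 of them at an unadjusted p under 0.05, and so were all 4 tested markers of border macrophages (median −0.20), 1 of them at an unadjusted p under 0.05. The summed level of the endothelial markers ran from 112.9 to 143.9 FPKM in running libraries, from 138 to 148 FPKM in MPTP libraries and from 127 to 132 FPKM in vehicle libraries. The part of ependyma, fibroblasts, endothelium and border macrophages in the choroid plexus result was not tested.

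The retinal pigment epithelium shares Ttr, Otx2, Rdh5 and Kcnj13 with the choroid plexus. Of the 8 other genes listed for it, Rgr and Tyr were under 0.1 FPKM in every library, and Rpe65 stood at 0.137 to 0.710 FPKM in running libraries, at 0.337 to 0.972 FPKM in MPTP libraries and at 0.278 to 0.772 FPKM in vehicle libraries. Lrat and Pmel stayed below 0.4 FPKM. Rlbp1, Mitf and Best1 were detected in every library. Rlbp1 ran from 2.53 to 3.91 FPKM in running libraries, from 2.48 to 3.82 FPKM in MPTP libraries and from 1.66 to 5.45 FPKM in vehicle libraries. Mitf ran from 1.37 to 1.60 FPKM in running libraries, from 1.49 to 2.27 FPKM in MPTP libraries and from 1.52 to 1.94 FPKM in vehicle libraries, and Best1 from 0.476 to 0.629, from 0.399 to 0.704 and from 0.448 to 0.616 FPKM in the same groups. The part of this epithelium in the result was not tested. The dopamine neuron markers that define the labelled tissue also varied between libraries within groups. Slc6a3, the dopamine transporter gene, was listed at 0 in MPTP plus running replicate 2 and stood at 0.149 and 10.6 FPKM in the other 2 running libraries, at 2.75, 0.0377 and 14.4 FPKM in MPTP replicates 1 to 3 and at 3.40, 1.41 and 10.8 FPKM in vehicle replicates. Th, the enzyme that starts dopamine synthesis, stood at 2.66, 5.35 and 6.69 FPKM in running libraries, at 5.93, 1.64 and 12.46 FPKM in MPTP libraries and at 5.30, 2.97 and 15.6 FPKM in vehicle libraries. MPTP replicate 2 was low in Slc6a3 and Th as well as in the choroid plexus genes, relative to the rest of its group, while MPTP plus running replicate 2 was lowest of its group in Slc6a3 but not in Th. Other listed dopamine markers differed in order. Vehicle replicate 3 was the lowest vehicle library in Slc18a2, Ddc, En1 and Aldh1a1 and the highest in Nr4a2 and Pitx3. MPTP plus running replicate 2 was the highest running library in Slc18a2, Drd2 and Aldh1a1 and the lowest in Nr4a2 and En1. MPTP replicate 2 was not the lowest MPTP library in Nr4a2 and Aldh1a1. The part of the tissue taken in these differences was not tested.

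FPKM are scaled within each library, so their sums do not give its depth. The sums lay between 331121 and 344049 in MPTP plus running libraries, between 326614 and 347524 in MPTP libraries and between 318416 and 319431 in vehicle libraries, so that every vehicle library was below every other library. The number of genes with at least 1 FPKM was 13413 to 13965. Several of the choroid plexus genes share exonic bases with a neighbour, and since the strand setting of the counting is not given, their reads may be partly the neighbour's. Kcnj13 shares 623 bases with Gigyf2, Rdh5 720 with Bloc1s1, Enpp2 345 with Gm26684, F5 262 with Gm16548, Otx2 322 with its antisense RNA and another gene, and Prlr 203 with Gm21973.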

How the data were processed

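The table holds FPKM per Ensembl gene for 9 libraries, as deposited by the authors. Per the submitters' processing notes, bcl2fastq, HTSeq and DESeq2 were used with GRCm38; the sources used here name no version, aligner, FPKM tool or strand setting. Low values did not resolve into whole reads (at best 50.5% to 52.6% within 2% of a whole step), so the depth is unknown. Gene names and coordinates came from GENCODE M21 (55154 of 55335 IDs matched).

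The 15997 genes that averaged 0.5 FPKM or more entered limma 3.58.1 (R 4.3.3), fitted to log2(FPKM + 1) with its trended variance prior, 3 group means in 1 fit, two-sided p, Benjamini-Hochberg adjustment over all tested genes and a threshold of 0.05. The fit had 6 residual and 2.68 prior degrees of freedom, and was tested on simulated data. Tables and plots were made with pandas 2.3.3, matplotlib 3.10.9 and numpy 2.4.6 under Python 3.11.15. Fold changes on this scale understate those of low genes.

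All 32 genes could be named, with genes of fixed marker lists and the 10 genes most alike in pattern among those with a mean of at least 1 FPKM. The genes and lists were chosen with earlier results of these data known. Replicate numbers have no stated meaning. Deviations from the group means correlated at 0.251, 0.33 and 0.105 between MPTP and vehicle libraries of the same number, all above the 0.1 taken here as the sign of a pairing. The fit reported has no block, as planned, and the blocked value is given where it changes a call. With running libraries, 4 of 6 such correlations were at or below 0.00692, which is no such sign. Those of replicate 3 were above 0.1, at 0.247 with MPTP and 0.241 with vehicle.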

Additional observations from a re-analysis of the deposited data

How the results depend on the processing

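Each comparison was refitted under 18 alternatives, 9 of which left out 1 library. In 1171 refits of the single-gene differences followed here (all 30 genes in MPTP against vehicle and in MPTP plus running against MPTP, 7 in MPTP plus running against vehicle, where tested) 0 changed sign and 1 passed the threshold, Enpp2 in MPTP against vehicle with the replicate number as a block (1.40 higher, limma adjusted p = 0.0415), which made 1 choroid plexus gene past the threshold there. The block gave 28 choroid plexus genes lower at an unadjusted p under 0.05 in MPTP plus running against MPTP (3.15% of tested genes) and 7 higher in MPTP plus running against vehicle (3.01%). For running libraries the sign of a pairing by number was mixed. A pseudocount of 0.1 moved the medians to 1.76 in MPTP against vehicle, −1.47 in MPTP plus running against MPTP and 0.58 in MPTP plus running against vehicle. A minimum mean of 2 FPKM left 13 choroid plexus genes, of which 13 were higher in MPTP against vehicle (median 1.70) and 12 were higher in MPTP plus running against vehicle; there were fewer genes by construction. In MPTP plus running against MPTP, 3 genes of the table passed without a filter, 1 after rescaling to the same sum and 1 with array weights, none of them among the 30 genes. In MPTP against vehicle, 0 genes passed when only the 2 groups compared were fitted. The cause was not tested. Leaving out 1 library gave 0 to 32 genes of the table past the threshold in MPTP against vehicle, 0 to 25 in MPTP plus running against MPTP and 0 to 2 in MPTP plus running against vehicle, with 0 choroid plexus genes among them. The medians ran from 0.79 to 1.16, from −1.03 to −0.47 and from 0.09 to 0.57 in the same order, and 20 to 30 genes were higher in MPTP plus running against vehicle, where some of the genes thus changed sign. Rescaling to the same sum put the median of all tested genes at −0.07 in MPTP against vehicle and −0.09 in MPTP plus running against vehicle. Unknown depth limits what can be said of genes below 1 FPKM.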

Other observations

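Genes of other brain regions also stood high in single libraries of this tissue. Pmch, the precursor of melanin-concentrating hormone made in the lateral hypothalamus, stood at 66.2 FPKM in vehicle replicate 3 and at no more than 4.37 FPKM in the 8 other libraries. Hcrt, the orexin precursor of the same region, stood at 14.4 FPKM in vehicle replicate 3 and at no more than 0.219 FPKM elsewhere. The other listed hypothalamic genes were highest in other libraries. Trh and Agrp peaked in MPTP plus running replicate 2 (8.98 and 0.705 FPKM) and Avp in running replicate 3 (1.75 FPKM). Pomc peaked in MPTP replicate 1 (1.81 FPKM) and Oxt in MPTP replicate 3 (0.629 FPKM). Vehicle replicate 3 was also the vehicle library with the most Ttr. Pmch and Hcrt were singled out after their values were seen.

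Some hippocampal genes were high in the running libraries that were also high in choroid plexus genes. Spink8 stood at 5.32, 0.108 and 8.61 FPKM in MPTP plus running replicates 1 to 3, at 0.200, 0.663 and 2.77 FPKM in MPTP replicates and at 0.0550, 0.317 and 0.639 FPKM in vehicle replicates. Lct stood at 1.78, 0.232 and 2.72 FPKM in running libraries, at 0.125, 0.175 and 0.464 FPKM in MPTP libraries and at 0.0319, 0.168 and 0.149 FPKM in vehicle libraries. Of 9 listed hippocampal genes 8 were higher in MPTP plus running against MPTP (45.7% of tested genes), 1 of them at an unadjusted p under 0.05 (1.11%). MPTP replicate 3 was above MPTP plus running replicate 1 in Prox1, C1ql2, Wfs1, Fibcd1 and Zbtb20. It was below that library in Dsp, Lct, Spink8 and Neurod6. The summed level of 8 thalamic genes ran from 110 to 131 FPKM in running libraries, from 60.2 to 198 FPKM in MPTP libraries and from 100.3 to 249.6 FPKM in vehicle libraries. The highest thalamic sums of these groups were in running replicate 2, MPTP replicate 3 and vehicle replicate 1. Ttr stood at 18.5, 2011 and 32.0 FPKM in those libraries. What part differences in the tissue taken have in the choroid plexus result was not tested.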
